A study of Caenorhabditis elegans with 53 samples.

Results

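The small RNAs that were recovered with GFP::RDE-1, the Argonaute that starts RNA interference in the nematode Caenorhabditis elegans, were compared with those of the input lysate. This experiment comprised 4 of the 53 libraries of the study, chosen by their labels: 2 GFP::RDE-1 co-immunoprecipitation (co-IP) libraries and 2 input libraries. All 4 came from strain USC1080, in which the rde-1 gene on chromosome V carries an inserted gfp, loxP and 3xFLAG sequence (allele cmp133), so the inputs held the tagged protein too. Whole gravid hermaphrodite adults were used, grown for 72 to 75 h at 20 °C after synchronized L1 on E. coli, and all 4 libraries were made from RNA of 16 to 30 nt treated with pyrophosphohydrolase, an enzyme that trims a 5′ triphosphate to a monophosphate so that 22G-RNAs can be ligated. No RNAi treatment was given in the labels for these animals. No co-IP from animals lacking the GFP fusion was used here, so a small RNA that stayed on the beads without RDE-1 and one that was bound by RDE-1 cannot be told apart.

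As background, RDE-1 binds primary siRNAs that Dicer cuts from long double-stranded RNA, in worms fed or injected with such RNA. The RDE-1 complex then leads RNA-dependent RNA polymerases to the target transcript, and these make the abundant antisense 22G-RNAs that other Argonautes (the WAGO proteins, and CSR-1 in the germline) bind. MicroRNAs are cut by Dicer from short hairpins and are mainly bound by the Argonautes ALG-1 and ALG-2, piRNAs (21U-RNAs) are bound by PRG-1, and 26G-RNAs by ERGO-1 in oocytes and embryos and by ALG-3 and ALG-4 in the male germline. The class that the authors called 23H-RNAs holds sequences of 21 to 24 nt under the names of worm genes, hairpins and repeats, and H is the code for any base other than G.

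The 23H-RNA class was listed as single sequences, written here as DNA as in the deposited table. The most abundant sequences of the loci F43E2.6 (chromosome II) and mir-5592 (chromosome X) are shown first, since several of them pair with another listed sequence. Capitals mark the last 2 bases, which are left unpaired at the 3′ end of such a duplex.
F43E2.6 no. 1: tttgccgatgtttctgagatgTC
F43E2.6 no. 2: tttgccgatgtttctgagatGT
F43E2.6 no. 3: catctcagaaacatcggcaaaTG
mir-5592 no. 1: tgtattaaacggtaagggccgGC
mir-5592 no. 2: catgtattaaacggtaagggCC
F43E2.6 no. 1 and no. 3 are the opposite strands of a 23 nt duplex with a 2 nt overhang at each 3′ end, and each of the other 3 pairs in the same way with a listed sequence that is not printed.

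The next 4 come from the other leading loci, the hairpin of gene WBGene00220185 on chromosome IV (part of its sequences also carry the name Y57G11C.51), rncs-1 on X and Y17D7C.3 on V. Here the capital marks the first base, which is not G in any of them.
WBGene00220185 hairpin no. 1: Agtggagtggatgacgacgacga
WBGene00220185 hairpin and Y57G11C.51 no. 1: Agtggagtggatgacgacgacg
F55A4.9 and rncs-1 no. 1: Tgctttcctcatctctgatcttt
Y17D7C.3 no. 1: Aatcggaaactcaaagaccaca

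Values were RPM, reads scaled to library size by the authors, for 26180 features in 14 small RNA classes. A value of 1 RPM stood for about 14.6 and 21.4 reads in the co-IPs and 20.7 and 21.9 reads in the inputs, as read from the steps between low values, and a listed 0 allows up to 0.206 and 0.140 RPM in the co-IPs and 0.145 and 0.137 RPM in the inputs (3 reads, counting error only). Small RNAs known from the adult germline and embryos were present in the inputs, where piRNAs summed to 29552 and 28197 RPM and the 3p strands of the embryonic mir-35 family to 38660 and 33916 RPM, while the male-germline ALG-3/4 class of 26G-RNAs summed to 1.23 and 10.5 RPM in the co-IPs and 55.2 and 19.4 RPM in the inputs. The labels do not say whether the replicates were separate cultures, so p-values measure the spread between these libraries.

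The co-IPs held mostly microRNAs, with larger shares of 23H-RNAs and of siRNAs to nrfl-1 and smaller shares of 22G-RNAs than the inputs. Among the listed RPM, microRNAs made up 74.4% and 62.1% of the co-IPs, against 33.0% and 29.4% of the inputs. The 23H-RNAs made up 7.31% and 16.7% of the co-IPs, against 0.0932% and 0.107% of the inputs, and their mean RPM was 159 times that of the inputs. WAGO-class 22G-RNAs held 7.18% and 6.65% of the co-IPs, against 36.8% and 39.4% of the inputs, and CSR-class 22G-RNAs 2.26% and 2.03% of the co-IPs, against 16.7% and 16.3% of the inputs. In each of these classes both co-IPs lay on one side of both inputs. The class share differed by 37.1 percentage points for microRNAs, 11.9 for 23H-RNAs, -31.1 for the WAGO class and -14.3 for the CSR class (co-IP minus input), each with an exact two-sided permutation p of 0.33, which is the smallest that 2 against 2 libraries can give (0.36 adjusted over the classes). The siRNAs to nrfl-1 held 4.64% and 8.06% of the co-IPs, against 0.0562% and 0.0604% of the inputs. The remaining RPM went to piRNAs (1.30% and 0.891% in the co-IPs, against 4.63% and 4.42% in the inputs), rRNA (1.49% and 1.99% in the co-IPs, against 5.16% and 6.66% in the inputs) and smaller classes.

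**Figure D1:**
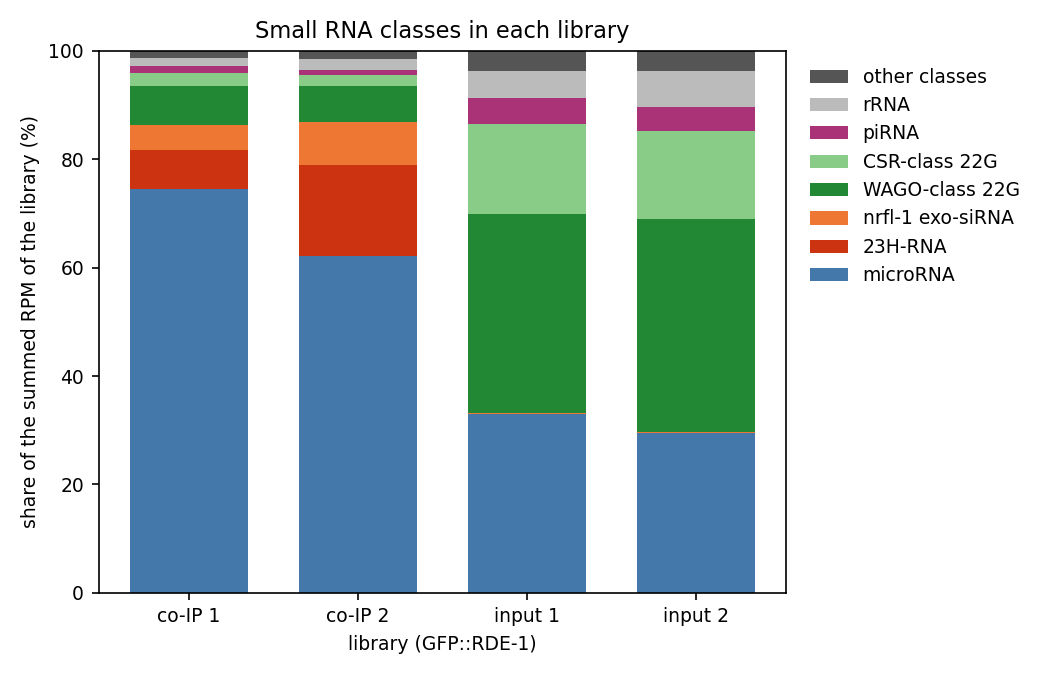
Share of the listed RPM (%, y axis) in each small RNA class for the 2 GFP::RDE-1 co-IP libraries and the 2 input libraries. MicroRNAs fill 74.4% and 62.1% of the co-IPs, against 33.0% and 29.4% of the inputs, and 23H-RNAs are a visible band in the co-IPs (7.31% and 16.7%) and not in the inputs.

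Of 9046 features tested with limma on log2(RPM + 1), 8520 (94.2%) passed an adjusted p of 0.05, of which 628 rose in the co-IPs (6.94% of those tested) and 7892 fell (87.2%), and the median log2 fold change (co-IP over input) was -1.87. Values are shares of a library, so a rise of a few abundant RNAs lowers the RPM of other features, and classes are also given against that median. Of the tested features 3431 were CSR-class and 2077 WAGO-class 22G entries, so the median lies close to theirs (-2.20 and -1.93). Reading a class against it is thus largely reading it against 22G-RNAs. Of the 628 that rose, 398 were 23H-RNA sequences, 152 were microRNA entries and 75 were entries under microRNA precursor names. The 2 siRNA features and a single piRNA make up the rest. After centring on the median of all features or on the median of piRNAs, all 406 tested 23H-RNAs rose, and after centring on the median of microRNAs 279 of 406 rose.

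**Figure D2:**
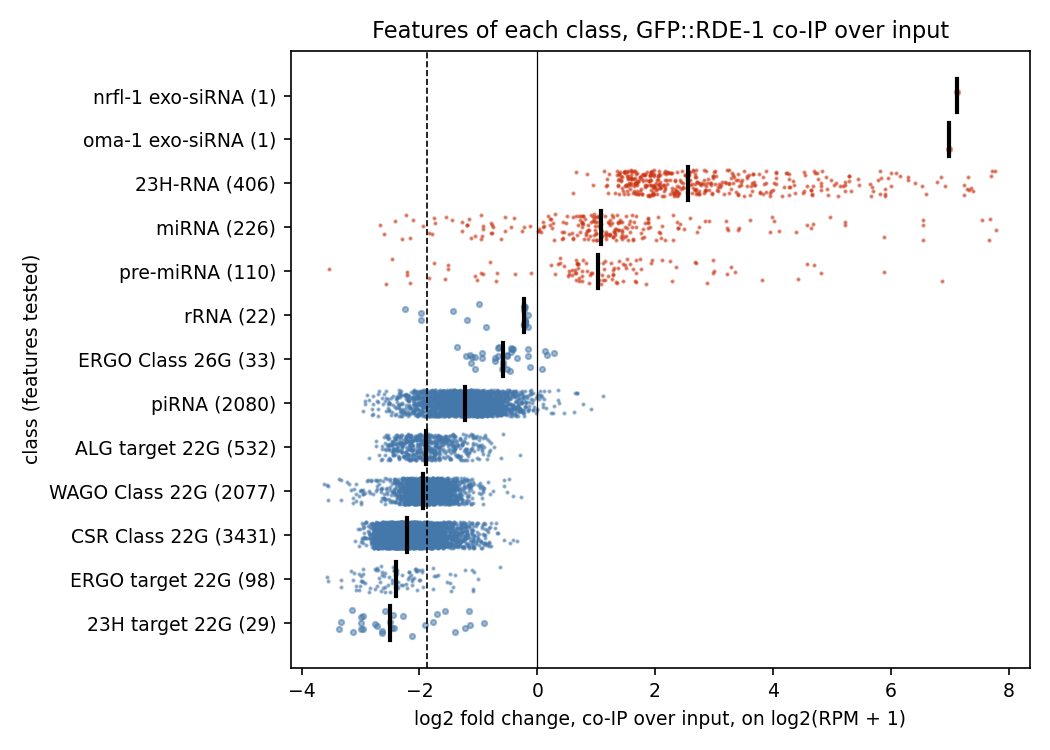
The log2 fold change in RPM (co-IP over input, x axis) of every tested feature by small RNA class, with a dot per feature, a black bar at the class median, a dashed line at the median of all features (-1.87) and a solid line at 0. The 23H-RNA (median 2.56), microRNA (1.08) and microRNA precursor (1.04) classes have medians right of 0, as do both siRNA features, and the medians of all other tested classes lie left of it.

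The siRNAs to nrfl-1, which encodes a homolog of the mammalian scaffold protein NHERF, were among the most abundant RNAs of the co-IPs. The authors classed them, and those to oma-1, as exo-siRNAs, a name for siRNAs from introduced double-stranded RNA. The labels name no RNAi for these animals, so the source of such RNA was not given. The nrfl-1 siRNAs had 40064 and 67322 RPM in the co-IPs and 359 and 385 RPM in the inputs, a log2 fold change of 7.12 (SE 0.29, limma adjusted p = 4.98e-05). Those to oma-1, which encodes a zinc-finger protein of oocyte maturation, had 1208 and 2131 RPM in the co-IPs and 11 and 12.2 RPM in the inputs, a log2 fold change of 7.0 (SE 0.27, adjusted p = 4.98e-05). Each of these siRNA features is a single entry of the table, and both co-IPs lay far above both inputs. Their share of the listed RPM was 4.64% and 8.06% in the co-IPs, against 0.0562% and 0.0604% in the inputs for nrfl-1, and 0.140% and 0.255% in the co-IPs, against 0.00172% and 0.00191% in the inputs for oma-1.

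Of 1193 listed 23H-RNA sequences 406 passed the minimum mean of 1 RPM, which many reached only through the co-IPs. Among them 398 rose, 8 did not pass the test and none fell (limma, 0 at an unadjusted p under 0.05), with a median log2 fold change of 2.56 and an 80% range of 1.54 to 5.23. How the authors chose the listed sequences was not given in the sources used here, so the direction may have been fixed by the choice. Without the minimum, 1192 of the 1193 were above 0 in both co-IPs, and 677 were at 0 in both inputs. Summed by locus name, all 179 loci were above both inputs in both co-IPs.

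F43E2.6, a locus for which the files give no function, supplied most 23H-RNA of the co-IPs. Its 86 sequences summed to 42678 and 97948 RPM in the co-IPs and 346 and 433 RPM in the inputs, and all 61 tested ones rose. Both co-IPs exceeded the mean input, 110 and 252 times. F43E2.6 no. 1, printed above, had 25399 and 65675 RPM in the co-IPs and 227 and 293 RPM in the inputs, a log2 fold change of 7.30 (SE 0.46, limma adjusted p = 5.24e-05). It was the most abundant 23H-RNA in every one of the 4 libraries. F43E2.6 no. 2 had 7255 and 13390 RPM in the co-IPs and 40.5 and 52.2 RPM in the inputs (log2 fold change 7.71, SE 0.31), and no. 3, from the opposite strand, 5516 and 8089 RPM in the co-IPs and 30.3 and 28.9 RPM in the inputs (7.77, SE 0.21).

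mir-5592, a locus named as a microRNA hairpin, was the second source. Its 38 sequences summed to 10644 and 13707 RPM in the co-IPs and 81.8 and 73.3 RPM in the inputs, and all 26 tested ones rose. mir-5592 no. 1 had 8202 and 10578 RPM in the co-IPs and 43.3 and 43.9 RPM in the inputs, a log2 fold change of 7.71 (SE 0.17, limma adjusted p = 4.98e-05), and no. 2 had 592 and 714 RPM in the co-IPs and 2.89 and 3.28 RPM in the inputs (7.32, SE 0.14). The co-IPs of this locus were closer to each other than those of F43E2.6. The microRNA strand named for the same hairpin, miR-5592-3p, had 287 and 348 RPM in the co-IPs and 2.12 and 2.71 RPM in the inputs (6.54, SE 0.16).

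The hairpin of WBGene00220185, labelled with its longer sequence name in the plot of loci, was the third source, and its co-IPs were far apart. Under both of its names together it summed to 7539 and 25054 RPM in the co-IPs and 107 and 115 RPM in the inputs. The 22 nt sequence that the table gives to both the hairpin and Y57G11C.51 had 3881 and 12587 RPM in the co-IPs and 42.1 and 47.8 RPM in the inputs (log2 fold change 7.25, SE 0.53). The 23 nt sequence, longer by its last base, had 2837 and 10248 RPM in the co-IPs and 44.1 and 42.6 RPM in the inputs (6.93, SE 0.57, limma adjusted p = 0.000102). The 2 sequences share 22 bases and a source, so they are not independent of each other.

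Outside these 3 sources the 23H-RNAs were few but were also higher in the co-IPs. They summed to 2234 and 3025 RPM in the co-IPs and 60.7 and 61.2 RPM in the inputs, and 239 of 245 tested sequences rose, with a median log2 fold change of 2.26. rncs-1, a noncoding RNA known to bind Dicer in C. elegans, had 262 and 453 RPM in the co-IPs and 1.48 and 2.55 RPM in the inputs together with F55A4.9, whose name shares its sequences. Y17D7C.3 had 220 and 276 RPM in the co-IPs and 3.91 and 4.81 RPM in the inputs. At both loci the inputs were low, though above what a listed 0 allows, and the co-IPs were far higher. PAL8C, the name of a repeat, had 160 and 251 RPM in the co-IPs and 0.49 and 0.51 RPM in the inputs. These minor sources stood 50.4 to 501 times above the mean input. The sequences under rRNA gene names had a lower median, with 225 and 151 RPM in the co-IPs and 24.8 and 24.5 RPM in the inputs, and 14 of 16 tested ones passed the test (median log2 fold change 1.68).

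**Figure D3:**
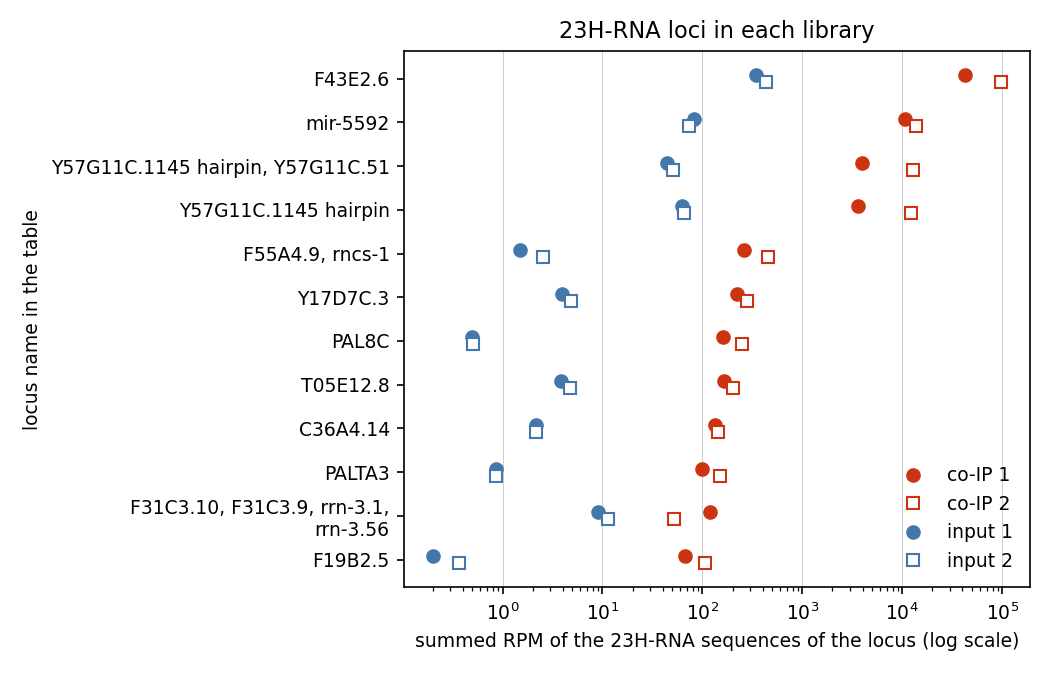
Summed 23H-RNA RPM (log axis) of the 12 loci with the highest values, with co-IP libraries in red and input libraries in blue (filled, replicate 1; open, replicate 2). At every locus both co-IPs lie above both inputs, and co-IP 2 lies above co-IP 1 at all but the rRNA locus that includes rrn-3.1 (120 and 52.4 RPM in the co-IPs, 8.95 and 11.3 RPM in the inputs).

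Length and base at the 5′ end were compared across the class. Sequences of 23 nt held 72.6% and 73.0% of 23H-RNA RPM in the co-IPs, against 66.7% and 67.6% in the inputs, and those of 21 nt 3.45% and 2.29% in the co-IPs, against 6.33% and 5.53% in the inputs. Sequences starting with G held 0.401% and 0.406% of 23H-RNA RPM in the co-IPs, against 4.60% and 4.45% in the inputs. Their sum was 8.75 and 19.6 times the mean input in the 2 co-IPs, against 106 and 233 times for U, 73.0 and 217 times for A and 147 and 211 times for C. Each library pair thus gave the 74 sequences with G the smallest ratio. Without F43E2.6, G still had the smallest ratio (8.52 and 19.4 times), while the order of the other bases changed. These ratios are descriptions, since many sequences overlap and share a source.

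Pairs with the geometry of Dicer products were common among the listed sequences. Of pairs of equal length in which all but the last bases are complementary, 201 had a 2 nt overhang at both 3′ ends, against 72 with none, 90 with 1 nt, 106 with 3 nt, 86 with 4 nt and 69 with 5 nt. The 381 sequences in pairs with a 2 nt overhang held 84.1% and 80.3% of 23H-RNA RPM in the co-IPs, against 73.3% and 76.6% in the inputs. Since a sequence can sit in pairs of several overhangs, the RPM share did not single out 2 nt: pairs with no overhang held 72.7% and 82.8% in the co-IPs, against 70.9% and 75.2% in the inputs. F43E2.6 no. 1 was 4.60 and 8.12 times as abundant as its partner no. 3 in the co-IPs and 7.50 and 10.2 times in the inputs. For mir-5592 no. 1 and its partner the ratio was 123 and 113 in the co-IPs, against 90.1 and 122 in the inputs. The more abundant strand was thus the same in co-IPs and inputs. Across F43E2.6, the 33 sequences that share at least 15 bases with no. 1 on its strand held 84.5% and 90.5% of the locus in the co-IPs, against 88.9% and 90.9% in the inputs.

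**Figure D4:**
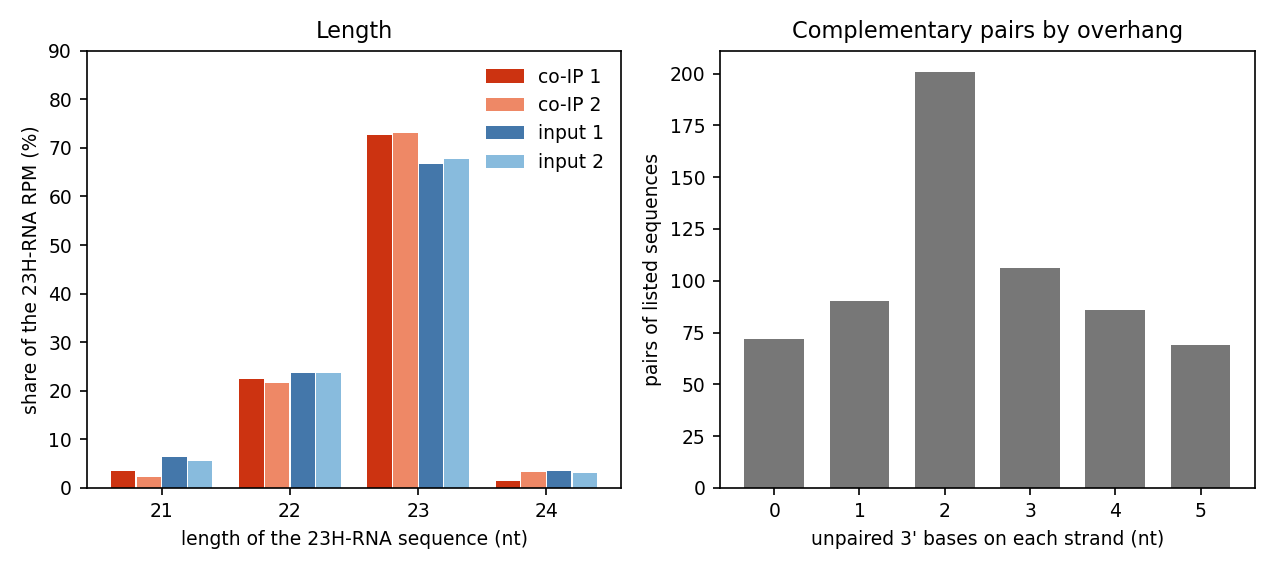
Left, the share of 23H-RNA RPM (%, y axis) by sequence length (nt) in each of the 4 libraries, with 23 nt holding 72.6% and 73.0% in the co-IPs, against 66.7% and 67.6% in the inputs. Right, the number of complementary pairs of listed sequences by the length of the 3′ overhang (nt), which is highest at 2 nt (201 pairs).

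MicroRNA strands as a group made up more of the co-IPs, and a small set rose far beyond the rest. Of 426 strand names 222 were tested, 148 rose, 27 fell and 47 did not pass the test (median log2 fold change 1.07, quartiles 0.43 and 1.63), and of the 226 entries behind these names 47 rose and 64 fell after centring on the microRNAs themselves. In 15 strands the log2 fold change was at least 4, in 6 of these at least 6. All 15 also rose under each of the 3 centrings, which says little, since they were chosen by the size of the change. Their median was 5.22 before and 4.01 after centring on the microRNAs. miR-789-2-5p had 3917 and 7820 RPM in the co-IPs and 21.2 and 27.1 RPM in the inputs, the largest change (7.79, SE 0.34, limma adjusted p = 4.98e-05). miR-240-5p had 8773 and 16913 RPM in the co-IPs and 62.7 and 65.9 RPM in the inputs (7.54, SE 0.32). These log2 fold changes were of the size seen in the sequences of F43E2.6 and mir-5592.

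miR-84-3p, from the hairpin of a let-7 family member, had 1715 and 1992 RPM in the co-IPs and 5.02 and 12.3 RPM in the inputs (log2 fold change 7.69, SE 0.37). miR-232-5p had 437 and 639 RPM in the co-IPs and 1.54 and 1.69 RPM in the inputs (7.66, SE 0.20). miR-243-3p, known in C. elegans to enter RDE-1 and to direct 22G-RNAs at Y47H10A.5, had 1545 and 3729 RPM in the co-IPs and 22.6 and 26.6 RPM in the inputs (6.56, SE 0.41). In all of them each co-IP was far above each input, but strands named by rank had to show no overlap between the groups. Of all 9046 tested features, 8796 showed none. Further strands in this set were miR-4814-3p (76.9 and 129 RPM in the co-IPs, 0.68 and 0.73 RPM in the inputs), miR-789-3p (51.3 and 43.3 RPM in the co-IPs, 0.31 and 0.27 RPM in the inputs), miR-51-5p (42703 and 27454 RPM in the co-IPs, 1173 and 1508 RPM in the inputs) and miR-238-3p (21846 and 27230 RPM in the co-IPs, 1205 and 1861 RPM in the inputs). The last 2 were among the abundant microRNAs of the co-IPs, so the set was not confined to rare strands.

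Abundant microRNAs of known function had smaller values. miR-35-3p, of the embryonic mir-35 family, had 68657 and 44139 RPM in the co-IPs and 15777 and 15380 RPM in the inputs (log2 fold change 1.82, SE 0.36, limma adjusted p = 0.00366). let-7-5p, the developmental timing microRNA, had 5353 and 4240 RPM in the co-IPs and 1581 and 1541 RPM in the inputs (1.61, SE 0.19), and lin-4-5p, another timing microRNA, 5920 and 3055 RPM in the co-IPs and 1989 and 1247 RPM in the inputs (1.43, SE 0.39, adjusted p = 0.0136). These 3 rises were no longer past the threshold after centring on the microRNAs, and the rise of miR-35-3p was not past it without input 1 or without input 2, nor that of lin-4-5p without co-IP 1 or without input 2. miR-1-3p, known from muscle, had 19497 and 10442 RPM in the co-IPs and 8970 and 9688 RPM in the inputs (0.61, SE 0.36) and did not pass the test.

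Within families the arms of the hairpins went different ways. All 8 3p strands of the mir-35 family rose, by 1.24 to 1.82 on the log2 scale, though none passed the test after centring on the microRNAs. The 6 tested 5p strands fell, with a median of -2.28, and after centring on the median of all features 3 fell and 1 rose. miR-40-5p had 11.8 and 9.70 RPM in the co-IPs and 71.6 and 68.3 RPM in the inputs (-2.60, SE 0.14), and miR-39-5p 14.9 and 9.24 RPM in the co-IPs and 61.2 and 72.3 RPM in the inputs (-2.41, SE 0.23). In the mir-58 family, related to bantam of flies, all 5 tested 3p strands rose, by 1.08 to 1.67 (none after centring on the microRNAs), while of the 5 tested 5p strands 1 rose, 1 fell and 3 did not pass the test. Outside the families miR-77-5p had 52.9 and 46.8 RPM in the co-IPs and 232 and 264 RPM in the inputs (-2.29, SE 0.13). After centring on the median of all features 4 of the 226 microRNA entries were called lower, in place of 27.

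GFP::ALG-1 libraries of the same study (2 co-IPs and 2 inputs of animals carrying alg-1(ap423[3xflag::gfp::alg-1]), on the empty vector L4440) gave a reference for the strands of a hairpin, with values side by side and no test between tables. Calling the arm more abundant in the GFP::ALG-1 inputs the main arm, in 72 hairpins with both arms tested the main arm rose with GFP::RDE-1 in 55 hairpins, fell in 3 and did not pass the test in 14 (median log2 fold change 1.16). The other arm rose in 31, fell in 21 and did not pass in 20 (median 0.10). The minimum mean of 1 RPM includes the co-IPs, so a rare arm can reach it through high co-IPs alone. miR-789-3p did so, with 0.31 and 0.27 RPM in the inputs. miR-35-5p, lower in both co-IPs than in both inputs, missed the minimum and was not tested. Rare arms that fell can thus be left out, and the counts for the other arm can lean toward rises. In the GFP::ALG-1 co-IPs the median log2 difference from input was 0.82 for the main arm and -1.12 for the other.

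In 7 hairpins the other arm exceeded the main arm by at least 2 in log2 fold change with GFP::RDE-1, those of miR-84, miR-232, miR-240, miR-800, miR-41, miR-83 and miR-4816. miR-232-5p was 60.8 and 107 times as abundant as miR-232-3p in the co-IPs and 0.333 and 0.754 times in the inputs, so the order of the arms was reversed. miR-84-3p was 1.51 and 0.907 times as abundant as miR-84-5p in the co-IPs and 0.0038 and 0.0123 times in the inputs. For miR-84-5p itself the change did not pass the test (0.45, SE 0.34). In GFP::ALG-1 libraries miR-240-5p had 6.53 and 7.01 RPM in the co-IPs and 75.9 and 65.3 RPM in the inputs, and miR-789-2-5p 3.09 and 1.92 RPM in the co-IPs and 19.3 and 21.7 RPM in the inputs. F43E2.6 no. 1 had 184 and 163 RPM in the GFP::ALG-1 co-IPs and 505 and 405 RPM in the inputs. These were thus below the inputs there. Of the 15 strands with a log2 fold change of at least 4, the GFP::ALG-1 difference was above 0 in 6, miR-243-3p among them (135 and 119 RPM in the co-IPs, 44.6 and 44.3 RPM in the inputs), and below 0 in 9.

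**Figure D5:**
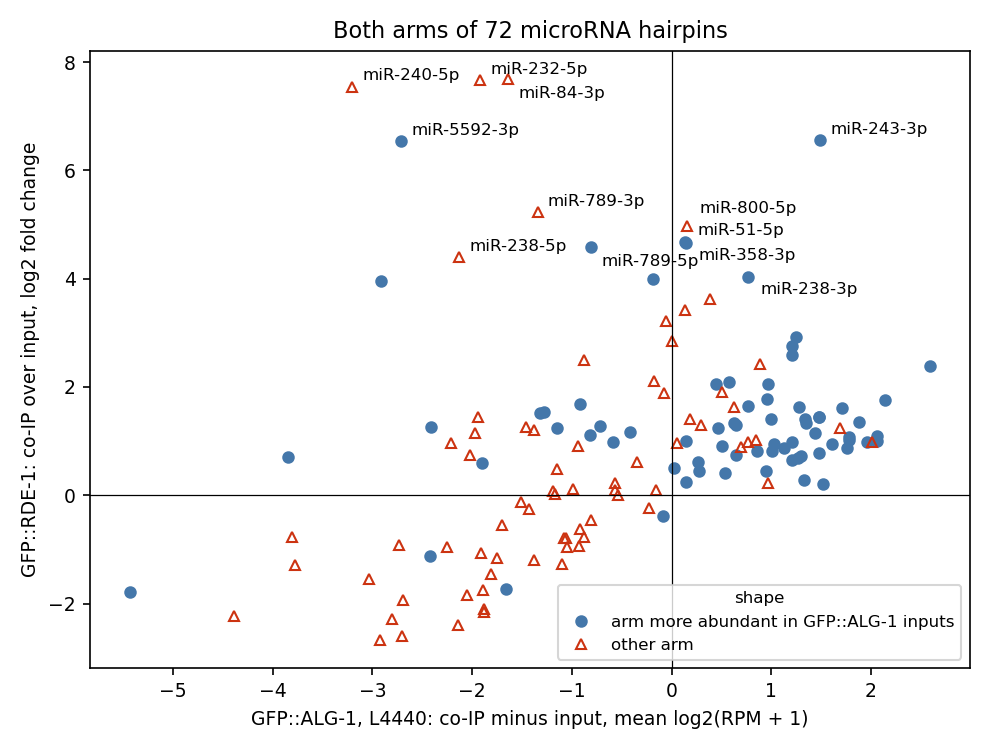
Each arm of 72 microRNA hairpins, by its mean log2(RPM + 1) difference between co-IP and input in the GFP::ALG-1 libraries on L4440 (x axis) and its log2 fold change with GFP::RDE-1 (y axis). Circles are arms that are more abundant in the GFP::ALG-1 inputs and triangles the other arms, and labels mark strands with a GFP::RDE-1 log2 fold change of at least 4, of which miR-84-3p, miR-232-5p, miR-240-5p, miR-5592-3p, miR-238-5p, miR-789-3p and miR-789-5p lie left of 0.

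MicroRNA precursor entries were listed apart from the strands, with 75 of 110 tested risen and 14 fallen (22 and 37 after centring on the microRNAs). cel-mir-239a had 699 and 814 RPM in the co-IPs and 5.93 and 5.02 RPM in the inputs (log2 fold change 6.87, SE 0.14), and cel-mir-238 1209 and 1696 RPM in the co-IPs and 19.6 and 27.6 RPM in the inputs (5.88, SE 0.23). The largest fall was that of mir-262, with 10.0 and 13.0 RPM in the co-IPs and 131 and 154 RPM in the inputs (-3.53, SE 0.17).

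Almost every gene with measurable 22G-RNAs had fewer of them in the co-IPs. Counting each gene once, 5684 of 5698 fell, 14 did not pass the test and none rose (limma, 0 at an unadjusted p under 0.05), with a median log2 fold change of -2.06, while after centring on the median of all features 1626 were lower and 82 higher. By class that centring left 272 of 2077 WAGO-class and 1334 of 3431 CSR-class entries lower, and 32 and 34 of these classes higher. The class medians were -1.93 for WAGO, -2.20 for CSR, -1.88 for ALG-3/4 targets and -2.40 for ERGO-1 targets, next to -1.87 for all features. The CSR-class sum was 0.314 and 0.306 times the WAGO-class sum in the co-IPs and 0.454 and 0.413 times in the inputs. Among single genes, Y36E3A.2 had 6.51 and 4.06 RPM in the co-IPs and 73.9 and 74.8 RPM in the inputs (-3.61, SE 0.21), and cyb-1, which encodes a B-type cyclin, 0.50 and 1.66 RPM in the co-IPs and 16.4 and 14.6 RPM in the inputs (-3.05, SE 0.30). knl-1, which encodes a kinetochore protein, fell to 8.32 and 4.87 RPM in the co-IPs, against 53.3 and 52.1 RPM in the inputs (-2.86, SE 0.24).

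The 22G-RNAs of the tested genes listed as 23H-RNA targets, or named as 23H-RNA loci, were low in these co-IPs as well, unlike the 23H-RNAs themselves. The 23H target class had 29 tested genes, all of which fell (median log2 fold change -2.50), while after centring on the median of all features 19 fell and 1 rose. F43E2.6 22G-RNAs had 3.70 and 3.87 RPM in the co-IPs and 14.1 and 14.9 RPM in the inputs (-1.69, SE 0.15), and those of WBGene00220185 26.4 and 43.9 RPM in the co-IPs and 74.3 and 79.6 RPM in the inputs (-1.15, SE 0.24, limma adjusted p = 0.00504). Both were less negative than the median of all features, and after centring on that median their values were 0.082 for F43E2.6 and 0.62 for WBGene00220185. Y17D7C.3 fell more, with 58.6 and 57.6 RPM in the co-IPs and 437 and 475 RPM in the inputs (-2.95). The 22G-RNAs of rncs-1 missed the minimum and were not tested, with 0.48 and 0.70 RPM in the co-IPs and 0.27 and 0.14 RPM in the inputs. Over all loci whose name matched a 22G gene, 45 genes were tested, 22G-RNAs fell in all 45 (in 26 after centring on the median of all features), and 23H-RNAs of the same names were higher in both co-IPs than in both inputs in all 45. Falls in all 29 or all 45 are near the background, since 5684 of 5698 genes with 22G-RNAs fell (1626 after that centring). All 179 23H-RNA loci lay above both inputs, so the rise of the 23H-RNAs held for any set of loci. Y47H10A.5, the 22G-RNA target of miR-243 named above, had 82.8 and 87.7 RPM in the co-IPs and 570 and 561 RPM in the inputs (-2.72, SE 0.11).

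Genes of the RNAi machinery are themselves templates of 22G-RNAs, and 31 of a list of 47 were tested. All 31 fell (20 after centring on the median of all features), with a median log2 fold change of -2.30 and a range of -2.78 (ego-1, an RNA-dependent RNA polymerase) to -1.20 (nrde-3, a nuclear Argonaute). This share is near the background, since 87.2% of all features and 5684 of 5698 genes with 22G-RNAs fell. 22G-RNAs to rde-1 itself had 8.22 and 8.12 RPM in the co-IPs and 33.4 and 36.0 RPM in the inputs (-1.96, SE 0.13), and those to dcr-1, the Dicer gene, 8.37 and 5.56 RPM in the co-IPs and 43 and 40.5 RPM in the inputs (-2.45, SE 0.20). The fall for rde-1 was not past the threshold after centring on the median of all features.

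The 26G-RNAs of the ERGO-1 class differed between replicates more than between co-IP and input. They summed to 26.7 and 319 RPM in the co-IPs and 319 and 122 RPM in the inputs. None of 33 tested passed the test (limma, 0 at an unadjusted p under 0.05, median log2 fold change -0.57), and in all 33 co-IP 2 exceeded co-IP 1 and input 1 exceeded input 2. The count rests on single libraries: without co-IP 2, 22 of 30 fell, without co-IP 1, 3 of 33 rose, without input 2, 3 of 33 fell, and without input 1 none of 30 passed. It also turned with the scaling: 2 rose after centring on all features and 16 on piRNAs, while 14 fell after centring on microRNAs and 11 with a replicate block. The 26G-RNAs of Y17D7C.3, for example, had 8.29 and 63.7 RPM in the co-IPs and 55.3 and 22.6 RPM in the inputs.

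piRNAs had a median nearer to 0 than the 22G-RNAs, with 1691 of 2080 tested called lower, 388 not past the test and a median log2 fold change of -1.23. The size of this gap depended on the scale. With a pseudocount of 0.1 RPM the medians were -1.75 for piRNAs and -2.05 for the WAGO class, and with 5 RPM -0.57 and -1.55. With a minimum mean of 5 RPM they were -1.56 and -1.96. After centring on the median of all features 582 piRNAs were higher and 35 lower. 21ur-6179 had 2.19 and 2.43 RPM in the co-IPs and 30.3 and 19.9 RPM in the inputs (-2.95, SE 0.23). The only piRNA to rise was 21ur-2414, named for that reason after its values were seen, with 1.71 and 1.49 RPM in the co-IPs and 0.53 and 0.82 RPM in the inputs (0.64, limma adjusted p = 0.0381). With 1 library left out, 0 to 8 piRNAs rose. Of 22 tested rRNA entries 7 fell, with rrn-1.1 at 1489 and 1700 RPM in the co-IPs and 6094 and 6393 RPM in the inputs (-1.97, SE 0.18). Most of the 22 entries carry rrn-4 names and have near-identical values, and rrn-1.1 is listed under more than 1 gene ID with identical values. Counts of rRNA entries thus do not stand for separate RNAs. All 22 fell without co-IP 2, or after rescaling each library to an equal sum over the listed RPM, and 5 to 7 fell without 1 of the other libraries. After centring on the median of all features 16 of the 22 rRNA entries were higher and the fall of rrn-1.1 was not past the threshold. The medians of the piRNA and 22G classes were not tested against each other.

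The co-IP replicates differed in a way that followed the classes. Co-IP 2 held 2.21 times the 23H-RNA RPM of co-IP 1 (1.15 between input 2 and input 1), 1.68 times the nrfl-1 siRNA and 1.76 times the oma-1 siRNA. The microRNA sum was 0.808 times, the WAGO class 0.896 times and piRNAs 0.661 times that of co-IP 1. Among microRNA strands the ratio of co-IP 2 to co-IP 1 had a median of 1.27 for the 15 strands with a log2 fold change of at least 4 (12 above 1), 0.792 for the other 133 that rose (35 above 1) and 0.839 for the 27 that fell (6 above 1). miR-243-3p (2.41) and miR-789-2-5p (2.00) were close to the 23H-RNAs in this ratio, while miR-51-5p and miR-35-3p were both at 0.643. The part of this spread in the class shares was not tested.

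A separate set of GFP::RDE-1 libraries from animals on nrfl-1 RNAi (3 co-IPs and 3 inputs carrying rde-1(cmp133[(gfp::3xFLAG)::rde-1])) was fitted on its own. Its labels name no pyrophosphohydrolase, its inputs held 96.6% ± 0.746 microRNA (SD, n = 3) and less than 1% of each 22G class, and the column names of its table also mention RDE-4::FLAG, which the labels do not, so its strain and tag are uncertain. There 2819 of 3197 tested features passed the test (88.2%), 483 higher (15.1%) and 2336 lower (73.1%). The 23H-RNA share was 8.43%, 15% and 12.4% in the co-IPs, against 0.0631%, 0.0916% and 0.0883% in the inputs, and 361 of 370 tested sequences rose. Of the 304 sequences that rose without an RNAi label and were tested there, 298 rose. All 15 microRNA strands with a log2 fold change of at least 4 rose there too, while of the 144 strands that rose without an RNAi label and were tested there 58 rose and 44 fell. The microRNA class as a whole took 82.8% ± 3.58 of the co-IPs and 96.6% ± 0.746 of the inputs there (SD, n = 3 each), the opposite order to the libraries without an RNAi label. The 22G-RNAs of 23H-RNA targets were split there, with 6 of 19 tested genes higher and 7 lower (median log2 fold change -0.25). Those of WBGene00220185 had 14.6, 15.4 and 13.0 RPM in the co-IPs and 2.95, 2.96 and 2.44 RPM in the inputs (2.02, limma adjusted p = 6.11e-05).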

How the data were processed

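The authors deposited RPM values made with tinyRNA and custom Python scripts, per the series design text. The RPM denominator, aligner, genome build and handling of reads that map to several places were not given in the sources used here, so no coordinates are given and near-identical sequences may share reads. A gene may be listed in more than 1 class. Features averaging 1 RPM or more across the 4 libraries were fitted with limma 3.58.1 in R 4.3.3 on log2(RPM + 1), with a mean-variance trend and Benjamini-Hochberg adjustment over all features (threshold 0.05). This scale understates changes of low features. Count tests were not run, since of values up to 2 RPM 86.1% to 93.9%, not nearly all, were whole reads within rounding to 2 decimals, against 14.9% to 22.4% expected at random. Replicate numbers were not taken as pairs (correlation of deviations 0.036). Named features were the largest changes of each class reaching 10 RPM, the most abundant 23H-RNAs and listed genes. Except for the listed genes, these had to pass the threshold without overlap between co-IPs and inputs. Other microRNA strands, minor 23H-RNA loci and 26G examples were named after their values were seen. Members and lists were chosen with earlier results of these data known. The fit was tested on simulated data. MicroRNA sequences and 39 columns of other samples were not used here.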

Additional observations from a re-analysis of the deposited data

Results flagged for a closer look

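Several microRNA strands rose in both GFP::RDE-1 co-IPs, while both GFP::ALG-1 co-IPs on L4440 lay below both of their inputs. The GFP::ALG-1 values (co-IP minus input, mean log2(RPM + 1)) were -3.20 for miR-240-5p, -2.71 for miR-5592-3p, -2.64 for miR-789-2-5p, -1.92 for miR-232-5p, -1.64 for miR-84-3p and -1.34 for miR-789-3p. They were -0.80 for miR-789-5p and -0.79 for miR-35-3p. The GFP::RDE-1 log2 fold changes of the same strands ran from 1.82 (miR-35-3p) to 7.79 (miR-789-2-5p). The rise of miR-35-3p was not past the threshold after centring on the microRNAs. In the separate GFP::RDE-1 libraries on nrfl-1 RNAi its log2 fold change was -0.00019 (limma adjusted p = 0.999). The difference between the Argonautes was not tested, since the tables were scaled separately.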

How the results depend on the processing

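Centring on the median of all features (median log2 fold change -0.09 in place of -1.87) left 3210 calls, 1399 higher (43.6% of calls in place of 7.37%) and 1811 lower, with 4 microRNA, 35 piRNA, 272 WAGO-class and 1334 CSR-class entries lower and 2 ERGO-1 26G entries higher. Centring on piRNAs (median -0.66) left 4806 lower (16.0% of calls higher), with 9 microRNAs and 287 piRNAs lower and 16 ERGO-1 26G entries higher. Centring on microRNAs (median -3.08), chosen after seeing the data, left 350 higher, with 47 microRNAs higher, 64 lower and 14 ERGO-1 26G entries lower. Over all 8520 called features, 2862 changed sign after centring on all features, 844 on piRNAs and 90 on microRNAs. Among named features, the 22G-RNA values that changed sign were WBGene00220185 (0.62 on the median of all features, 0.057 on that of piRNAs) and F43E2.6 (0.082 on the median of all features). Each of these shifts adds a constant per library, by construction. Without the minimum value 1101 features were higher, 891 of them 23H-RNAs, with 2689 piRNAs lower and 1 ERGO-1 26G entry lower. With a minimum of 5 RPM, 311 were higher, 140 of them 23H-RNAs, with 675 piRNAs lower. The fit with a replicate block gave 8773 calls, 663 higher, and 11 ERGO-1 26G entries lower, and changed no call of a named feature. Leaving out 1 library gave 7883 to 8684 calls, 507 to 647 higher, 277 to 438 23H-RNAs higher and 0 to 22 ERGO-1 26G calls, and kept 7809 to 8292 of the 8520 calls with no change of sign. The ERGO-1 26G share difference (co-IP minus input, -0.0139 percentage points) ranged from -0.0314 to 0.00361 points, the last without co-IP 1, and was also above 0 without input 1 (0.00147). On nrfl-1 RNAi, no minimum gave 9550 calls (871 higher, 8679 lower, 724 23H-RNAs higher), and centring on all features 1564 (791 higher, 773 lower, 126 microRNAs higher). Over 49 named features and all settings, 668 of 686 values kept direction and side of the threshold, 15 lost the call and 3 changed sign. Other pseudocounts and no trend kept the calls by class within 1.5 times, as did rescaling each library to an equal sum, except for rRNA (22 lower in place of 7) and piRNAs (0 higher in place of 1). The class medians moved with the pseudocount. At 0.1 and 5 RPM the median was 5.04 and 1.07 for 23H-RNAs (2.56 in the main fit). For microRNAs it was 1.22 and 0.77 (1.08 in the main fit). The causes were not tested. With 2 libraries a group, no class share could pass the exact test.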
